A study of Mus musculus with 4 samples.

Results

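Translation initiation factors are the proteins that bring the small ribosomal subunit to the 5′ end of an mRNA and set it at the start codon. The genes described here are those whose RefSeq row maps to a symbol that begins with Eif1 to Eif6, without the eIF2 kinases (Eif2ak), and there were 48 of them among 13084 measured genes. They came from 49 rows, since the near-identical genes Eif3j1 and Eif3j2 were added together as Eif3j1/2. The rule used names alone and no measured value, but it was set with earlier results of these data known. RNA-seq was done in 4 stable lines of 3T3-L1, a murine preadipocyte line, each on day 8 after the start of adipogenesis with insulin (5 µg/ml), dexamethasone (1 µg/ml), IBMX (0.5 mM) and rosiglitazone (5 µM). FLAG cells carry the empty FLAG vector and FLAG-CACUL1 cells overexpress CACUL1, and both were selected with G418. In sh-Luc cells the hairpin is against luciferase and in sh-CACUL1 cells it is against CACUL1, and both were selected with hygromycin B. Each line is 1 sample, so no difference below has a replicate check and no p-value is given, and whether a line grew from 1 resistant colony or from several is not given in the sources used here.

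Initiation begins when eIF2 carries the initiator methionine tRNA, bound with GTP, to the small subunit together with eIF1, eIF1A, eIF3 and eIF5. The cap-binding protein eIF4E, the scaffold eIF4G and the RNA helicase eIF4A form eIF4F, which loads that complex on the mRNA. eIF2B recharges eIF2 with GTP, and 4E-BP proteins hold eIF4E away from eIF4G until mTORC1 phosphorylates them. Insulin acts on this last step, and 4E-BP1 was first known as a phosphoprotein of insulin-treated fat cells.

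Many mRNAs of the translation machinery start with a run of pyrimidines, the 5′ terminal oligopyrimidine (TOP) tract, so the annotated start sites of the members were read from the RefSeq promoters of GRCm38.p6. An entry was found for 38 of the 48 members. The sequences below show the 10 bases before the start site and the 20 bases from it, with the unbroken pyrimidine run at the start site in capitals. The first pair are the members with a TOP-like start, here a C followed by at least 4 more pyrimidines, at chrX:94212632-94212661 (minus strand) and chr7:108934405-108934434 (plus strand). The other 3 are members that fell 2-fold in a comparison below, at chr12:85219471-85219500 (plus), chr7:126566347-126566376 (minus) and chr16:23107458-23107487 (plus).
Eif2s3x: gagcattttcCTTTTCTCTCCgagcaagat
Eif3f: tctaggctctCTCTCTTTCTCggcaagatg
Eif2b2: ccgagcggaagttgacctctctcggcccgg
Eif3c: ctgctcagagggactcggcagcttagctgg
Eif4a2: gaaaccccgtaggagcagggcggccgagga
A TOP-like start was thus annotated for 2 of 38 members (5.26%), against 3.05% of 10128 measured genes with an entry and 2.51% of all 32851 promoters. Eif2b2, Eif3c and Eif4a2 had no pyrimidine at the annotated start. For Eif4ebp1, the remaining member that fell, no entry was found.

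The members were abundant mRNAs that differed over a wide range of levels. Their median FPKM, averaged over the 4 samples, was 55.1, against 7.61 over all genes, and FPKM is scaled by transcript length, so levels can be set side by side between genes. Eif5a led with a mean of 365 FPKM, followed by Eif4a1 with 292, Eif1 with 289, Eif3h with 194 and Eif4ebp1 with 169.6. The lowest were Eif4e3 with 1.58, Eif5a2 with 2.01 and Eif4g3 with 3.85 FPKM. In all 4 samples 45 members had at least 1 FPKM and 40 had at least 10. Between samples most members varied little. The highest sample was within 2-fold of the lowest for 29 of 48 members and within 3-fold for 41. The median of this highest-to-lowest ratio was 1.80 for the members and 2.55 over all genes. Part of that gap goes with abundance: among genes with at least 10 FPKM in every sample the median ratio was 1.76 for 40 members and 1.97 over 3824 genes. Within 2-fold were 67.5% of these members and 51.6% of these genes. The plot of member levels shows this, with Eif4g3, Eif2b2 and Eif1b as the members with the widest spread.

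**Figure D1:**
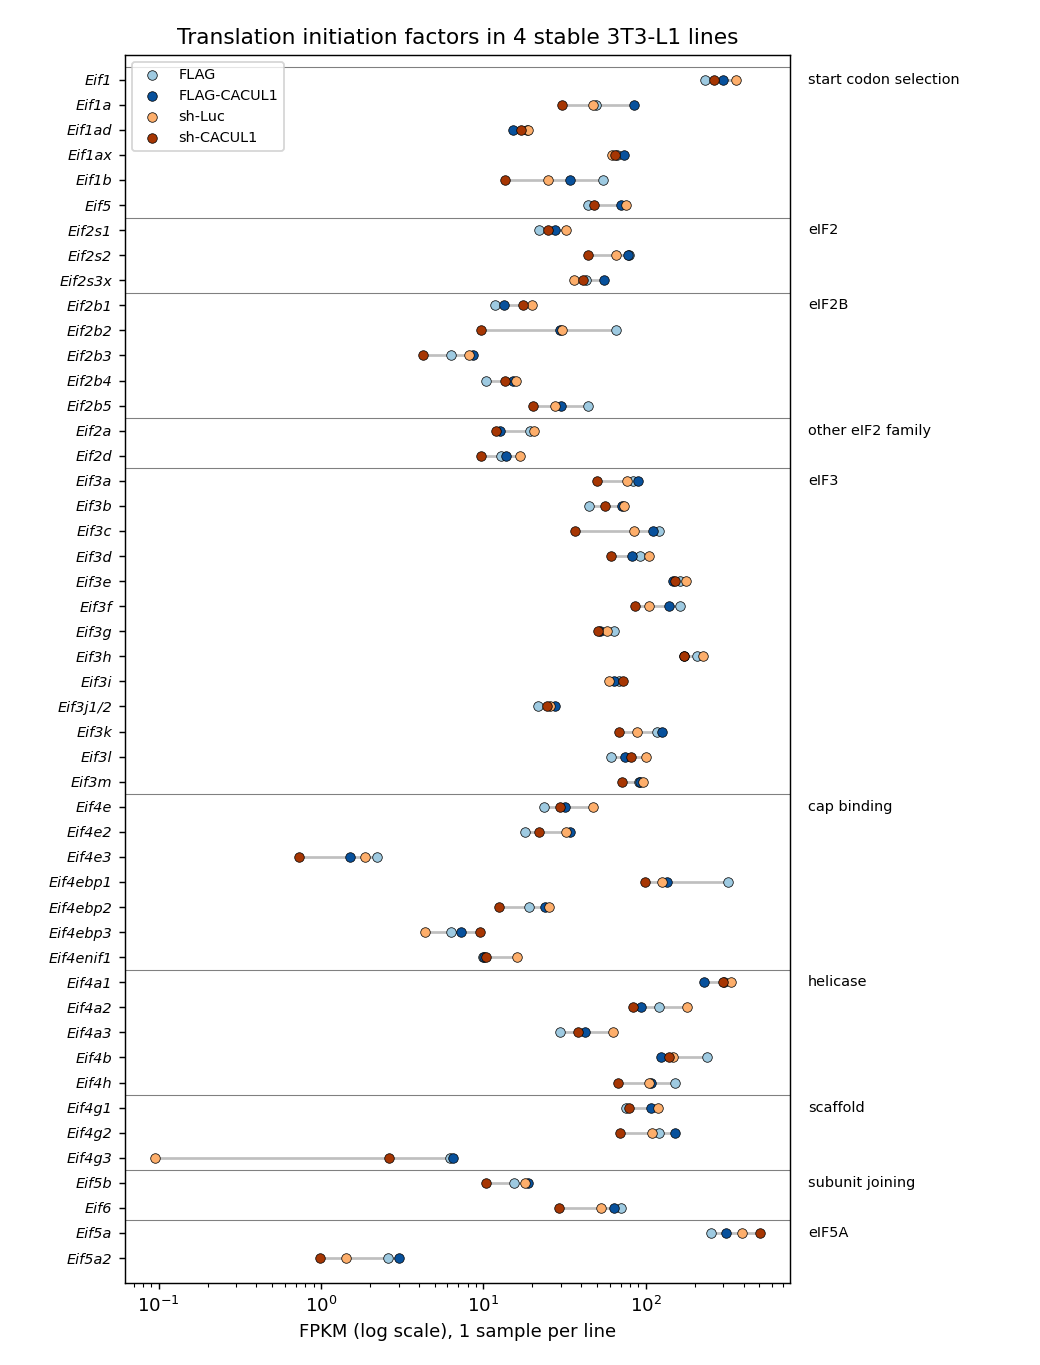
FPKM of the 48 initiation factor genes on a log axis, grouped by role, with 1 point per stable line and a grey bar from the lowest to the highest line. Most bars are shorter than 2-fold, whereas Eif4g3 spans 68.4-fold because of its 0.0949 FPKM in sh-Luc.

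Facts of the whole series touch every value below. Cacul1 itself was measured at 9.61 FPKM in FLAG against 11.8 in FLAG-CACUL1, and 10.2 in sh-Luc against 5.39 in sh-CACUL1. The libraries held an estimated 14300000 to 23900000 fragments, sh-Luc being the deepest. The adipocyte marker list (9 of 9 measured) summed to 8438 FPKM in FLAG against 883 in FLAG-CACUL1, and 1688 in sh-Luc against 17626 in sh-CACUL1, and all 9 markers fell in FLAG-CACUL1 and rose in sh-CACUL1 at the 2-fold cut-off. The preadipocyte and fibroblast list (8 of 8) summed to between 639 FPKM in sh-CACUL1 and 6997 in FLAG-CACUL1. Of the 639 FPKM, Col1a1 held 156 and Col3a1 365. In FLAG-CACUL1 4 of its genes rose and 1 fell 2-fold, beside 7.51% and 7.21% of all genes. In sh-CACUL1 3 rose and 4 fell, beside 4.94% and 16.4% of all genes. The 3 that rose there (Dlk1, Thy1 and Zfp423) were the genes under 1 FPKM in sh-Luc. Markers of proliferating cells (4 of 4) summed to 50.8 FPKM in sh-Luc and to 16.1 to 19.1 in the others. Of the macrophage list 2 of 5 genes had a row, and Cd68 had 16.2 FPKM in FLAG and 0.962 to 1.44 elsewhere, whereas Csf1r was under 1 FPKM in every sample. Of the endothelial list only Pecam1 had a row, at 0.301 FPKM or less. The part of these differences in the results below was not tested, and in bulk RNA a change in the number of cells of a type and a change in RNA per cell cannot be told apart.

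In FLAG-CACUL1 over FLAG, which asks what more CACUL1 goes with, the initiation factors as a group sat where the typical gene sat. Eif2b2, a subunit of eIF2B, and Eif4ebp1, the gene of the eIF4E inhibitor 4E-BP1, fell at least 2-fold, and no member rose 2-fold. That is 2 of 48 members (4.17%) in either direction, against 14.7% of all genes (7.51% up and 7.21% down). Fold changes are log2 ratios of FPKM + 1, which understates the change of low genes. The median log2 fold change was 0.09 for the members and 0.09 over all genes, and 28 members were above 0 and 20 below (58.7% and 41.3% of all genes). The middle of the members was narrower, with quartiles of -0.26 and 0.33 against -0.27 and 0.48 over all genes. At the lower cut-off of 1.5-fold, 4 members were higher (Eif4e2, Eif1a, Eif5 and Eif3b) and 4 lower (Eif4ebp1, Eif2b2, Eif4b and Eif1b), beside 20.0% and 14.3% of all genes. Together they are 16.7%, against 34.3% of all genes. Among genes with at least 10 FPKM in every sample, 1 of 40 members passed 2-fold, against 13.5% of genes.

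In sh-CACUL1 over sh-Luc, the depletion of CACUL1, 42 of 48 members were lower and 6 higher, but the typical gene was lower as well. Eif2b2, the eIF3 subunit gene Eif3c and the helicase gene Eif4a2 fell at least 2-fold and Eif4g3, a scaffold gene, rose. These 4 members are 8.33%, against 21.3% of all genes (4.94% up and 16.4% down). The median log2 fold change was -0.45 for the members and -0.30 over all genes, of which 68.7% were below 0. Against the all-gene median 31 members were lower and 17 higher. That gap depends on the pseudocount and on abundance. With no pseudocount the medians were -0.501 and -0.455, and 25 of 48 members were lower than the all-gene median. With at least 10 FPKM in every sample they were -0.42 and -0.37, and 23 of 40 members were lower. At 1.5-fold, 20 members were lower and 2 higher, beside 34.3% and 10.1% of all genes. Together they are 45.8%, against 44.4%. With at least 10 FPKM in every sample, 2 of 40 members passed 2-fold here, against 20.7% of genes. The all-gene median depends on the scaling: quantile normalization moved it by 0.29 and median-of-ratios scaling by 0.31, to about 0. Both methods bring it near 0 by construction. The split of all genes past 2-fold became 9.0% up and 8.28% down or 9.39% up and 7.44% down. The members' median then became -0.21 or -0.01, and 35 or 25 of 48 members were lower than the all-gene median. Of the 3 that fell, Eif2b2 was past 2-fold under both scalings (-1.20 and -1.12), and Eif3c (-0.93 and -0.72) and Eif4a2 (-0.94 and -0.62) were lower without passing it.

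The 2 control lines also differed from each other. In FLAG over sh-Luc, 4 members were at least 2-fold higher (Eif4g3, Eif4ebp1, Eif2b2 and Eif1b) and 1 was lower (Eif4a3, whose protein is the helicase of the exon junction complex), which is 10.4% of members against 21.0% of all genes (8.58% up and 12.4% down). At 1.5-fold, 7 members were higher and 11 lower (37.5%), beside 15.3% and 27.7% of all genes (43.0%). With at least 10 FPKM in every sample, 3 of 40 members passed 2-fold, against 17.9% of genes. The median was -0.08 for the members and -0.18 over all genes. The controls differ in vector and selection drug, and each of them is also a side of a comparison above, so FLAG-CACUL1 over FLAG and FLAG over sh-Luc share the FLAG sample and the other pair shares sh-Luc. Against the control of the other vector, 1 member (Eif4g3) rose 2-fold in FLAG-CACUL1 and none fell, beside 5.04% and 4.87% of all genes (9.91% in either direction). In sh-CACUL1 over FLAG, 1 rose and 7 fell, beside 7.45% and 15.4% of all genes (22.9% in either direction). The directions of Eif4ebp1 in FLAG-CACUL1 (0.10) and of Eif4g3 in sh-CACUL1 (-0.98) turned.

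Set against each other, 23 members were higher in FLAG-CACUL1 and lower in sh-CACUL1 and 1 (Eif3i) had the opposite pattern, 19 were lower in both and 5 higher in both (Eif1ax, Eif2s3x, Eif4ebp3, Eif4g3 and Eif5a). Over all genes these patterns held 43.4%, 16.1%, 25.3% and 15.2%, respectively, and among the members 47.9%, 2.08%, 39.6% and 10.4%. When each comparison was centred on its all-gene median, the member counts became 15, 8, 16 and 9, which are 31.2%, 16.7%, 33.3% and 18.8% of members against 29.1%, 29.1%, 20.9% and 20.9% of all genes. The scatter of both comparisons shows the members around the crossing of the all-gene medians. Counted by sample, sh-Luc was the highest for 21 members (43.8% against 37.1% of all genes) and sh-CACUL1 the lowest for 25 (52.1% against 41.6%). FLAG and FLAG-CACUL1 were each highest for 12 (25% against 22.3% and 21.8% of all genes), and sh-CACUL1 for 3 (6.25% against 18.7%).

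**Figure D2:**
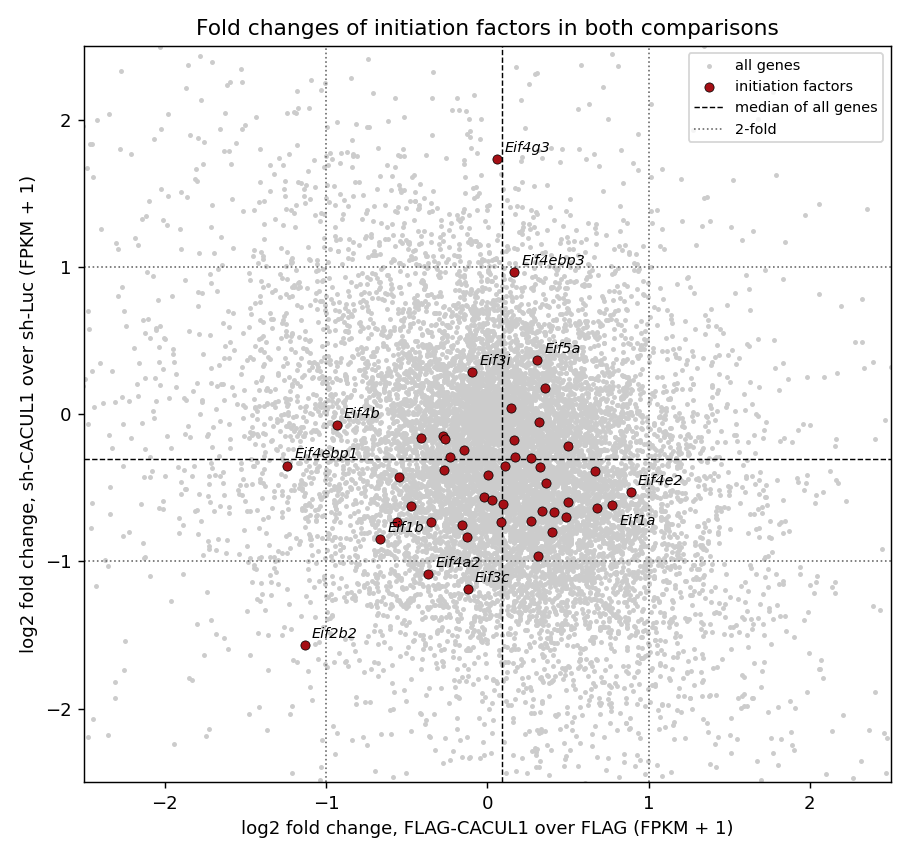
Log2 fold change of each gene in FLAG-CACUL1 over FLAG (x) against sh-CACUL1 over sh-Luc (y), with all genes in grey, the 48 initiation factors in red, dashed lines at the medians of all genes and dotted lines at 2-fold. Eif2b2 is the member past 2-fold on both axes, at -1.13 and -1.57; 367 grey genes lie beyond the axes at 2.5 and no member does.

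The start codon selection group was taken by name, as Eif5 and the genes whose symbol begins with Eif1. These 6 genes held 12.1% to 16.0% of the members' summed FPKM. Eif1a encodes a form of eIF1A, which with eIF1 keeps the scanning complex open. It had 49.1 FPKM in FLAG against 84.6 in FLAG-CACUL1, and 47.3 in sh-Luc against 30.4 in sh-CACUL1, so both controls were close to each other and the log2 fold changes were 0.77 and -0.62. Its X-linked relative Eif1ax was steadier, with 66.7, 73.8, 62.4 and 64.3 FPKM in the same order. The ratio of Eif1a to Eif1ax was therefore 0.736 in FLAG against 1.15 in FLAG-CACUL1, and 0.758 in sh-Luc against 0.473 in sh-CACUL1. Eif5 encodes the protein that makes eIF2 hydrolyse its GTP. It had 43.8 FPKM in FLAG against 70.8 in FLAG-CACUL1, and 75.7 in sh-Luc against 48.2 in sh-CACUL1, which gave 0.68 and -0.64 but left FLAG and sh-CACUL1 alike. Eif1b, a relative of Eif1, was the member of this role with the widest spread. It had 54.3 FPKM in FLAG against 33.9 in FLAG-CACUL1, and 25.1 in sh-Luc against 13.5 in sh-CACUL1, lower in the CACUL1 line of both pairs (-0.66 and -0.85). Eif1 had 233, 299.7, 362 and 261 FPKM, so Eif1b was 0.233 of Eif1 in FLAG and 0.113, 0.0695 and 0.0517 of it in the others. The ratios of Eif1a to Eif1ax and of Eif1b to Eif1 were chosen after the values were seen. Eif1ad varied by 1.24-fold over the 4 samples.

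The 3 genes of eIF2 that had a row stayed within 2-fold over the samples. Eif2s1 encodes the alpha subunit, whose phosphorylation is the switch of the integrated stress response. Its values were 21.9 FPKM in FLAG against 27.8 in FLAG-CACUL1, and 32.4 in sh-Luc against 25.1 in sh-CACUL1. Eif2s2, the beta subunit gene, had 78.8 and 77.7 FPKM in FLAG and FLAG-CACUL1 and 65.2 and 43.8 in sh-Luc and sh-CACUL1. Eif2s3x, the X-linked gamma subunit gene with the TOP-like start shown above, had 42.8, 55.1, 36.0 and 41.0 FPKM and was higher in the CACUL1 line of both pairs (0.36 and 0.18). The subunit genes did not keep one ratio, and Eif2s1 was 0.278 of Eif2s2 in FLAG against 0.357 in FLAG-CACUL1, and 0.497 in sh-Luc against 0.572 in sh-CACUL1. This pair was chosen after its values were seen. Between 32.1% and 36.9% of the 31-base stretches of Eif2s2 and Eif2s3x also occur in other annotated genes or pseudogenes, so their values are uncertain where reads could be split.

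The 5 genes of eIF2B, the exchange factor that phosphorylated eIF2 blocks and whose mutations cause vanishing white matter disease, held the member that fell in both comparisons. Eif2b2 (chr12:85219481-85226628, plus strand, mm10) encodes the beta subunit. It had 66.0 FPKM in FLAG against 29.6 in FLAG-CACUL1, and 30.6 in sh-Luc against 9.65 in sh-CACUL1. FLAG was thus the high sample and sh-CACUL1 the low one, whereas FLAG-CACUL1 and sh-Luc were alike. It fell in FLAG-CACUL1 by 1.13 and in sh-CACUL1 by 1.57 on the log2 scale, at percentiles 5.79 and 5.37 of all genes. From the estimated fragments, the log2 ratio without a pseudocount was -1.16 (95% exact interval -1.29 to -1.03) and -1.66 (-1.87 to -1.46), intervals that cover counting error only and not the variation between cultures. No 31-base stretch of Eif2b2 occurs in another annotated gene. For the other members that fell 2-fold, the shared part was 11.0% (Eif3c), 13.9% (Eif4a2) and 7.33% (Eif4ebp1). Compared directly with sh-Luc, FLAG-CACUL1 differed by -0.05, so the fall in FLAG-CACUL1 rests on the FLAG sample.

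Of the other subunit genes, only Eif2b5 had its highest value in FLAG and its lowest in sh-CACUL1, as Eif2b2 did. Eif2b5, the catalytic epsilon subunit gene, had 44.2 FPKM in FLAG against 30.0 in FLAG-CACUL1, and 27.7 in sh-Luc against 20.3 in sh-CACUL1, lower in both pairs by less than 2-fold (-0.55 and -0.43). Eif2b1, the alpha subunit gene, had 11.8, 13.3, 19.8 and 17.5 FPKM, and Eif2b4, the delta subunit gene, had 10.4, 15.2, 15.9 and 13.5, both lowest in FLAG. Eif2b3, the gamma subunit gene, had 6.28, 8.61, 8.15 and 4.26 FPKM (0.40 and -0.80). Ratios within a sample do not depend on the scaling between samples. Eif2b2 was 1.49 times Eif2b5 in FLAG against 0.986 in FLAG-CACUL1, and 1.10 in sh-Luc against 0.475 in sh-CACUL1. Against Eif2b1 the ratio ran from 5.61 in FLAG through 2.22 and 1.54 to 0.552 in sh-CACUL1, a 10.2-fold range. Both Eif2b2 ratios were chosen after the values were seen. Of the related factors that bring tRNA in other ways, Eif2a had 19.3 FPKM in FLAG against 12.7 in FLAG-CACUL1, and 20.6 in sh-Luc against 12.0 in sh-CACUL1 and was lower in both pairs (-0.56 and -0.73). Eif2d varied by 1.73-fold.

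The 13 genes of eIF3, the large complex that holds the small subunit and recruits the mRNA, carried between 31.4% and 34.5% of the members' FPKM in every sample. In FLAG-CACUL1 their log2 fold changes ran from -0.27 to 0.67 with a median of -0.09, and none passed 2-fold. In sh-CACUL1 12 of the 13 were below 0, with a median of -0.35, but only 7 were below the all-gene median of -0.30. Eif3c stood apart there. Its protein is a core subunit that contacts eIF1 and eIF5, and the gene lies at chr7:126546455-126566411 on the minus strand (mm10). It had 120.2 FPKM in FLAG against 110.4 in FLAG-CACUL1, and 84.7 in sh-Luc against 36.6 in sh-CACUL1, so the 3 other samples were within 1.5-fold of one another and sh-CACUL1 was low. It fell by 1.19 on the log2 scale, and the ratio from estimated fragments was -1.21 (95% exact interval -1.28 to -1.14). Eif3i was the one eIF3 gene that was higher in sh-CACUL1, with 68.5, 64.1, 59.1 and 72.3 FPKM (-0.09 and 0.29). Eif3c was 1.76 times Eif3i in FLAG against 1.72 in FLAG-CACUL1, and 1.43 in sh-Luc against 0.507 in sh-CACUL1. This pair, the eIF3 genes with the lowest and the highest fold change in sh-CACUL1, was chosen after the values were seen. Eif3b had 44.5, 71.4, 73.4 and 55.9 FPKM, with its low value in FLAG (0.67 and -0.39). The other 10 genes of eIF3 varied between 1.22-fold (Eif3e) and 1.91-fold (Eif3f) over the samples.

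Eif3j1/2 needs the sum of its rows. The Eif3j1 row had 14.5 FPKM in FLAG against 0.0936 in FLAG-CACUL1, and 0.0564 in sh-Luc against 24.7 in sh-CACUL1, and the Eif3j2 row had 7.30, 27.5, 25.7 and 0.0357. Their transcripts share 94.0% of the 31-base stretches of the shorter one, and each row was near 0 where the other was high. The sum was 21.8, 27.6, 25.7 and 24.7 FPKM, a range of 1.26-fold. Other members with many shared stretches were Eif4a1 (67.5%), Eif3m (53.7%), Eif4a3 (44.8%), Eif3e (42.0%), Eif3h (37.4%) and Eif1 (37.2%). For Eif1 the gene sharing most was Emd (23.5%). How reads of shared stretches were counted is not given in the sources used here.

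**Figure D3:**
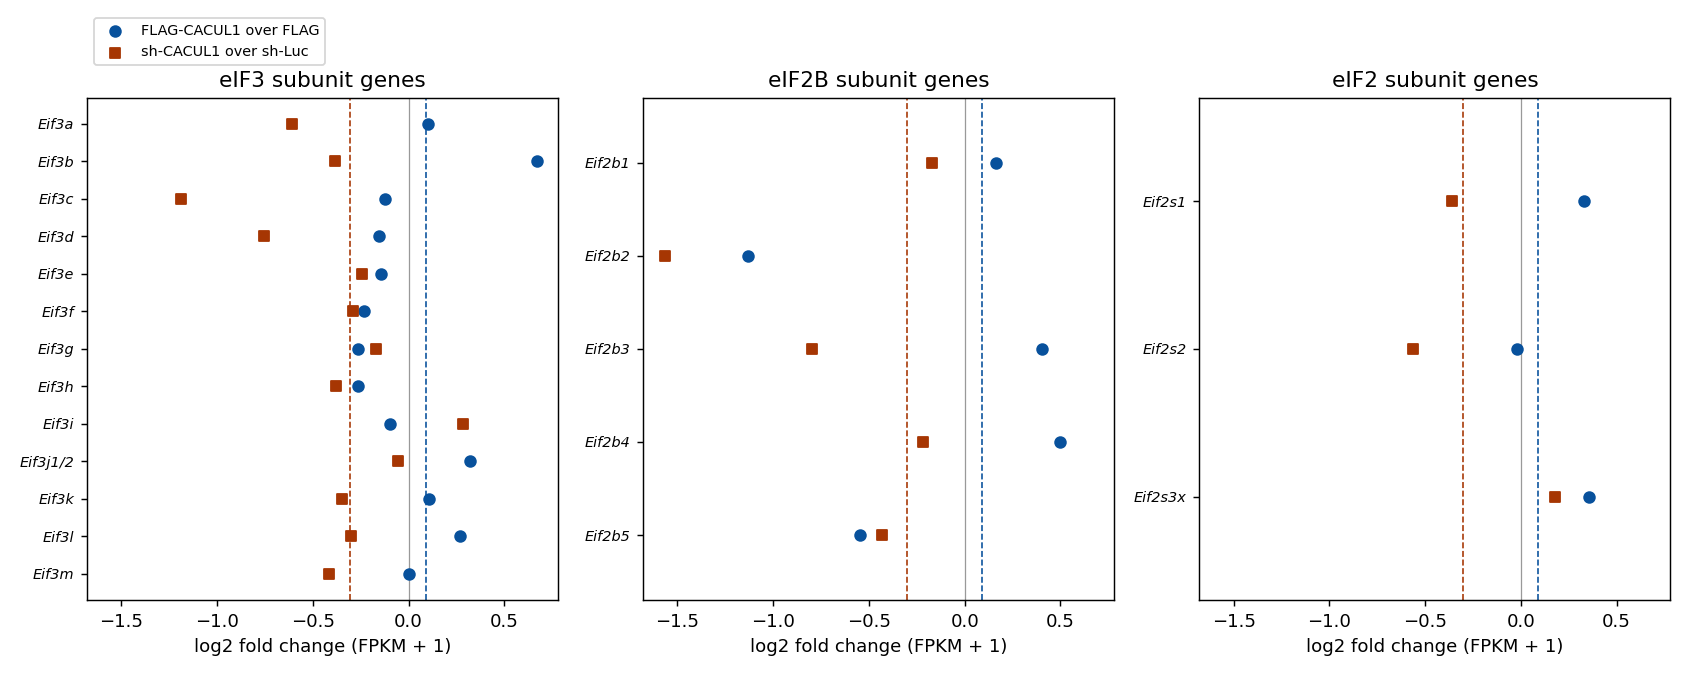
Log2 fold change of FPKM + 1 for each subunit gene of eIF3, eIF2B and eIF2, with circles for FLAG-CACUL1 over FLAG, squares for sh-CACUL1 over sh-Luc and dashed lines at the medians of all genes. Eif2b2 lies at -1.13 and -1.57 and Eif3c at -1.19 in sh-CACUL1, outside the range of the other subunits.

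Cap binding and its inhibitors, 7 genes, held 10.3% of the members' FPKM in FLAG and 5.86% to 6.73% elsewhere, and Eif4ebp1 made most of that gap. The gene (chr8:27260329-27276674, plus strand, mm10) had 320.1 FPKM in FLAG against 135 in FLAG-CACUL1, and 126 in sh-Luc against 98.3 in sh-CACUL1. The FLAG sample alone was high. It fell by 1.24 on the log2 scale in FLAG-CACUL1, with a ratio from estimated fragments of -1.25 (95% exact interval -1.30 to -1.19), and was lower by less than 2-fold in sh-CACUL1 (-0.35). The adipocyte markers summed to 8438 FPKM in FLAG and to 17626 in sh-CACUL1, which had the lowest Eif4ebp1 of the 4, and their part in these values was not tested. Eif4ebp2 followed another pattern, with 19.0 FPKM in FLAG against 23.8 in FLAG-CACUL1, and 25.3 in sh-Luc against 12.5 in sh-CACUL1 (0.31 and -0.96). Eif4ebp3 had 6.34, 7.24, 4.39 and 9.52 FPKM, highest in sh-CACUL1 (0.97 over sh-Luc). It rested on an estimated 106 fragments there and 78 in sh-Luc, and 67.3% of its exon bases overlap another gene on the same strand, so reads of both cannot be told apart.

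Eif4e, which encodes the cap-binding protein itself, had 23.5 FPKM in FLAG against 31.6 in FLAG-CACUL1, and 47.3 in sh-Luc against 29.4 in sh-CACUL1 (0.41 and -0.67). Its highest and lowest values were those of the 2 controls. As 4E-BP1 competes with eIF4G for eIF4E, the ratio of their mRNAs was formed within each sample. Eif4ebp1 was 13.6 times Eif4e in FLAG against 4.26 times in FLAG-CACUL1, and 2.66 times in sh-Luc against 3.34 times in sh-CACUL1, and with all 3 inhibitor genes summed the ratios were 14.7, 5.24, 3.28 and 4.09. The excess of inhibitor over target mRNA was thus largest in FLAG, and in the hairpin pair it was slightly higher with CACUL1 depleted. For Eif4ebp2 the ratio to Eif4e was 0.807, 0.754, 0.535 and 0.425, and for Eif4ebp3 it was 0.270, 0.229, 0.0928 and 0.323. Eif4g1, the main eIF4G scaffold gene and the binding partner of eIF4E, was 3.24, 3.41, 2.52 and 2.66 times Eif4e, a range of 1.35-fold. The helicase gene Eif4a1 was 12.9, 7.23, 7.10 and 10.2 times Eif4e, a range of 1.82-fold with the highest value in FLAG. The Eif4g1 and Eif4a1 ratios and that of the 3 summed inhibitor genes were chosen after the values were seen. The protein levels and the phosphorylation that sets 4E-BP1 binding were not measured by these data.

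Averaged over the 4 samples, the relatives of Eif4e were less abundant, though Eif4e2 was above Eif4e in FLAG-CACUL1. Eif4e2 encodes 4EHP, which binds the cap without eIF4G and represses translation. It had 17.9 FPKM in FLAG against 34.0 in FLAG-CACUL1, and 32.1 in sh-Luc against 21.9 in sh-CACUL1, the largest positive log2 fold change of a member in FLAG-CACUL1 (0.89, percentile 90.2 of all genes). Its ratio to Eif4e was 0.762, 1.08, 0.678 and 0.745. Eif4e3 had 2.21, 1.52, 1.87 and 0.733 FPKM, from an estimated 28 to 113 fragments, and is the least abundant member. Eif4enif1, whose protein carries eIF4E to the nucleus and to P-bodies, varied by 1.63-fold.

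**Figure D4:**
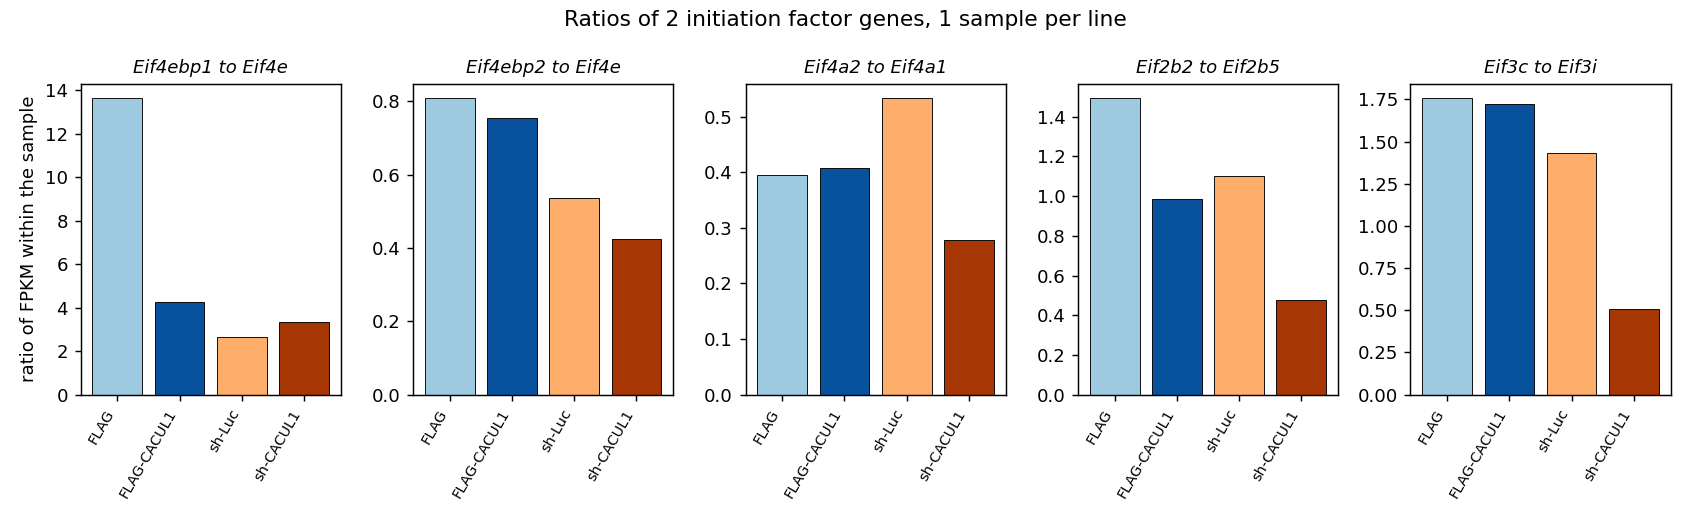
Ratios of the FPKM of 2 initiation factor genes within each of the 4 samples, 1 bar per stable line, each panel with its own axis from 0. Eif4ebp1 to Eif4e is 13.6 in FLAG against 2.66 to 4.26 elsewhere, whereas Eif2b2 to Eif2b5 and Eif3c to Eif3i are lowest in sh-CACUL1, at 0.475 and 0.507. The Eif2b2 and Eif3c ratios were chosen after the values were seen.

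Among the helicase genes, Eif4a1 and Eif4a2 encode closely related forms of eIF4A. Eif4a1 had 304 FPKM in FLAG against 229 in FLAG-CACUL1, and 336 in sh-Luc against 299.9 in sh-CACUL1 (-0.41 and -0.16). Eif4a2 (chr16:23107444-23114136, plus strand, mm10) had 120.2, 93.1, 179 and 83.6 FPKM, with sh-Luc high and the others within 1.5-fold of one another. It fell by 1.09 on the log2 scale in sh-CACUL1, and the ratio from estimated fragments was -1.10 (95% exact interval -1.16 to -1.04). Eif4a2 was 0.395 of Eif4a1 in FLAG against 0.407 in FLAG-CACUL1, and 0.533 in sh-Luc against 0.279 in sh-CACUL1, so the ratio was close in the FLAG lines and differed 1.91-fold between the hairpin lines. Eif4b, whose protein stimulates eIF4A and is a target of S6 kinase, had 237 FPKM in FLAG against 124 in FLAG-CACUL1, and 147 in sh-Luc against 139 in sh-CACUL1. As with Eif4ebp1, FLAG alone was high, and the log2 fold changes were -0.93 and -0.07. Under median-of-ratios scaling Eif4b passed 2-fold in FLAG-CACUL1 (-1.07). Eif4h, a relative of Eif4b, varied by 2.24-fold, and Eif4a3 had 29.7, 41.9, 62.9 and 38.3 FPKM.

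The scaffold genes contained one near-absent value. Eif4g3 (chr4:137993022-138208508, plus strand, mm10) encodes eIF4GII, the less abundant eIF4G. It had 6.18 FPKM in FLAG against 6.50 in FLAG-CACUL1, and 0.0949 in sh-Luc against 2.64 in sh-CACUL1. The 2 FLAG lines were alike (0.06), and sh-Luc stood far below the rest. The log2 fold change of 1.73 in sh-CACUL1 compares an estimated 268 fragments with 15, and without a pseudocount it was 4.80 (95% exact interval 4.09 to 5.69). Over all genes, 3 were under 0.1 FPKM in sh-Luc with at least 2 FPKM in each other sample, Eif4g3 among them, and 7 in sh-CACUL1, 1 in FLAG-CACUL1 and 0 in FLAG. These cut-offs lie close to the Eif4g3 values of 0.0949 and 2.64 FPKM, so the counts only describe genes of this kind. The cause of the low value was not tested. Eif4g1 had 76.0, 108, 119 and 78.3 FPKM, so FLAG and sh-CACUL1 were alike and low (0.50 and -0.60). Eif4g2 encodes DAP5, which lacks the eIF4E-binding part of eIF4G, and had 120.0, 152, 109 and 69.1 FPKM (0.34 and -0.66).

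Of the late factors, the subunit joining GTPase gene Eif5b and Eif6, whose protein keeps the large subunit apart, varied by 1.80-fold and 2.40-fold, and both were lowest in sh-CACUL1. Eif5a encodes the hypusine-bearing factor that helps stalled ribosomes onwards. It had 251 FPKM in FLAG against 311 in FLAG-CACUL1, and 392 in sh-Luc against 506 in sh-CACUL1, one of only 3 members whose highest sample was sh-CACUL1. It was higher in both pairs by less than 2-fold (0.31 and 0.37). Together with Eif5a2 it made 6.57% of the members' FPKM in FLAG against 8.70% in FLAG-CACUL1, and 10.1% in sh-Luc against 16.3% in sh-CACUL1. Eif5a2, the paralog with restricted expression, had 2.58, 3.02, 1.43 and 0.990 FPKM and was 0.0103 of Eif5a in FLAG and 0.00196 of it in sh-CACUL1.

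Other genes of translation were read from 7 lists, of which 39 of 41 genes had a row. In FLAG-CACUL1 3 of the 39 rose and 2 fell 2-fold, beside 7.51% and 7.21% of all genes. In sh-CACUL1 3 rose and 4 fell, beside 4.94% and 16.4%. The medians were 0.01 and -0.16, against 0.09 and -0.30 over all genes. The 8 genes that passed 2-fold in at least one of these comparisons were Eif2ak2, Ppp1r15a, Mknk2, Rps6kb1, Dhx29, Mcts1, Pabpn1 and Eef2. Eif2ak2, the RNA-activated kinase of eIF2, had 16.7 FPKM in FLAG against 37.7 in FLAG-CACUL1, and 23.9 in sh-Luc against 8.36 in sh-CACUL1, so it rose in one comparison (1.13) and fell in the other (-1.41). Ppp1r15a, the stress-induced subunit of the eIF2 phosphatase, had 75.3, 31.2, 24.6 and 10.2 FPKM and fell in both (-1.24 and -1.19), with FLAG high and sh-CACUL1 low, as for Eif2b2. Mknk2 encodes a kinase of eIF4E. It had 126, 32.9, 60.3 and 145 FPKM, so it fell in FLAG-CACUL1 (-1.91) and rose in sh-CACUL1 (1.25), the same directions as the adipocyte markers. The kinase gene Rps6kb1, whose protein phosphorylates eIF4B, rose in FLAG-CACUL1 from 3.30 to 8.85 FPKM (1.20). Its level in sh-Luc and sh-CACUL1 was 11.2 and 10.0. Dhx29, a helicase of scanning on structured leaders, had 2.02, 5.18, 8.64 and 3.50 FPKM (1.03 and -1.10). In sh-CACUL1 Mcts1 (1.33) and Pabpn1 (1.01) rose and the elongation factor gene Eef2 fell from 809 to 387 FPKM (-1.06).

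The E-box CACGTG, the palindromic site that MYC and related factors bind, was searched in the same promoters, from 250 bases before to 50 after each start site. It was chosen after the expression values were seen. It was found for 10 of the 38 members with an entry (26.3%), against 11.6% of measured genes, or in 24.0% of 50 member promoters against 7.15% of all promoters. The 10 were Eif1b, Eif3a, Eif3f, Eif3k, Eif4a1, Eif4e, Eif4g1, Eif4h, Eif5a and Eif5a2. Eif4e has another annotated start site, within chr3:138526181-138526210, whose promoter had no match. The Eif4e promoter shown holds the motif at 228 and 64 bases before its start site (capitals). It covers the 250 bases before that start, at chr3:138527018-138527267 (GRCm38.p6, plus strand).
Eif4e: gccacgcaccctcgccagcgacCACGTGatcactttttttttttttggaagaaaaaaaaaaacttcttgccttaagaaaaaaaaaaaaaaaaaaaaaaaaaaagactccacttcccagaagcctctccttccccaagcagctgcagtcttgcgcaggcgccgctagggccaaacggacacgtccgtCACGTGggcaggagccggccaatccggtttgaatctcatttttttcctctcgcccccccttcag
The members with the motif had a median log2 fold change of 0.10 with CACUL1 overexpressed, and the 28 without it 0.12. With CACUL1 depleted both medians were lower, at -0.47 and -0.45. Of the members that fell 2-fold in either comparison, Eif2b2, Eif3c and Eif4a2 had no match and Eif4ebp1 had no entry. A match is a description of letters in this window and no evidence of binding.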

How the data were processed

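Values came from the FPKM tables that the authors deposited for their 4 lines of 3T3-L1 cells (day 8 of differentiation), 1 sample per group and 13110 rows each. FPKM, computed by the authors, divides the fragments of a row by transcript length and library size. Library preparation and sequencing were done by a company, and the study called changed genes at 2-fold. The submitters' processing notes name mm10, and the aligner, the counting program, strandedness and any normalization between samples are not given in the sources used here. Symbols were taken from GENCODE M21 (GRCm38) by RefSeq identifier, 196 rows had no symbol there, and rows of 1 symbol were summed. A fold change is log2((FPKM + 1)/(FPKM + 1)). With 1 sample per group no test was run, and members were read beside the counts and median over all genes. The spread between cultures is unknown.

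Depth was estimated from the spacing of low FPKM times transcript length in rows of at least 3000 bases, at 14400000 fragments in FLAG and 14300000 in FLAG-CACUL1, and 23900000 in sh-Luc and 14900000 in sh-CACUL1. Exact binomial intervals (95%) on estimated fragments cover counting error only. Their median width over the members was 0.192 (log2) in FLAG-CACUL1 over FLAG and 0.189 in sh-CACUL1 over sh-Luc. Promoters are those of RefSeq on GRCm38.p6, and shared stretches of 31 bases and exon overlaps were counted in GENCODE M21.

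Members given with values in every sample were those past 2-fold in either main comparison, the 5 with the largest rise and the 5 with the largest fall among members of 1 FPKM or more in every sample, the members of 8 ratios, and all of eIF2, eIF2B and eIF4F. Eif1, Eif4a3, the rows of Eif3j1 and Eif3j2 and 10 further ratios were added after their values were seen. The members and lists were chosen with earlier results of these data known. Alternatives were a pseudocount of 0.1, none, quantile normalization, median-of-ratios scaling, a minimum of 1 FPKM in every sample, the row with the highest mean, a 1.5-fold cut-off and the other control, and a minimum of 10 FPKM was added after the data were seen. The scripts were tested on simulated data. Python 3.11.15, numpy 2.4.6, pandas 2.3.3, scipy 1.17.1 and matplotlib 3.10.9 were used.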

Additional observations from a re-analysis of the deposited data

How the results depend on the processing

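With 1 sample per group no replicate could be left out. No paired analysis was possible because each group holds 1 sample and the labels give all of them the same number. In sh-CACUL1 over sh-Luc, members up numbered 2 with a pseudocount of 0.1, with none and under both scalings and 0 with at least 1 or at least 10 FPKM, since the filters remove Eif4g3, and members down numbered 5 with either other pseudocount, 1 under both scalings and 7 against the other control. The share of all genes down moved too, from 16.4% to 23.5% with a pseudocount of 0.1, 26.3% with none, 8.28% under quantile normalization, 7.44% under median-of-ratios scaling and 15.4% against the other control, and the share up from 4.94% to 8.28%, 10.4%, 9.0%, 9.39% and 7.45% in the same order. With at least 1 or at least 10 FPKM, 4.57% or 5.65% of genes were up. The members' median was -0.210 under quantile normalization and -0.0134 under median-of-ratios scaling. In FLAG-CACUL1 over FLAG, members up numbered 1 with the highest-mean row (Eif3j2 alone) and 1 against the other control. Of all genes, 7.51% and 5.04% were up there. Members down numbered 0 against the other control and 1 with at least 10 FPKM, beside 4.87% and 6.51% of genes. The median was -0.0396 under median-of-ratios scaling and -0.0536 against the other control. In FLAG over sh-Luc, members down numbered 2 with either other pseudocount or the highest-mean row and 0 under median-of-ratios scaling. Of all genes, 19.6% were down with a pseudocount of 0.1, 22.5% with none, 12.4% with the highest-mean row and 7.15% under that scaling. Members up numbered 2 with at least 10 FPKM, beside 8.29% of genes. The median was 0.21 under median-of-ratios scaling, against -0.005 over all genes. At 1.5-fold the counts up and down were 4 and 4, 2 and 20, and 7 and 11 in the 3 comparisons. Against the other control Eif4ebp1 turned to 0.10 in FLAG-CACUL1 and Eif4g3 to -0.98 in sh-CACUL1. The filter of 10 FPKM was chosen after the data were seen. Of 60 fold changes of named members, 60 kept their sign with either other pseudocount, 55 under quantile normalization, 51 under median-of-ratios scaling and 34 against the other control. Except where the filter or the summed rows are named, the cause was not tested. Depth limits Eif4e3, Eif5a2, Eif4ebp3 and Eif4g3, whose intervals are the widest in sh-CACUL1 over sh-Luc.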
